A study of Drosophila melanogaster with 3 samples.

Results

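Long-read isoforms of adult Drosophila heads were examined for 4 genes of synaptic vesicle endocytosis: shi (dynamin, FBgn0003392), lqf (epsin, FBgn0028582), lap (AP180, FBgn0086372) and EndoA (endophilin A, FBgn0038659). The genes were chosen by identifier, and their isoforms are the exon lines that carry those identifiers. They had 11 of the 5272 isoforms in the assembly, and 3 of the 4 genes were among its 4059 genes. The isoforms came from PacBio Iso-seq, in which a consensus read of a cDNA runs across a whole transcript. All 3 libraries formed 1 group, heads of untreated adults of the strain w1118 aged 3 days and raised at 25 °C. The libraries were made from 0.5 µg of total RNA with 14 PCR cycles and a selection for transcripts above 3 kb. They were merged before assembly, so each value below describes the pooled libraries, with no spread between them and no abundance. Coordinates are on dm6.

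After a synaptic vesicle has fused with the membrane of the nerve terminal, its membrane is taken back by clathrin-mediated endocytosis. AP180 and epsin are adaptors that bind membrane lipids and clathrin and help to form the coated pit, endophilin bends the neck of the pit and recruits the lipid phosphatase synaptojanin, and the GTPase dynamin cuts the neck. Flies with temperature-sensitive alleles of shi are paralysed when warmed because their terminals run out of vesicles, and lqf was named for its eye phenotype and also acts in the uptake of Notch ligands.

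The labelled tissue was checked against lists of cell type markers. At least 1 isoform was present for 8 of 8 photoreceptor genes, 5 of 7 glial genes, 5 of 6 muscle genes and 4 of 6 fat body genes, and for 0 of the 4 germline genes that matched the annotation. The share over all annotated protein-coding genes was 28.8%, so the absence of so few germline genes says little about the tissue. Of the 8 neuronal genes, 3 had isoforms: nSyb had 4, Syt1 had 7 and cpx had 8, whereas elav, Syn, brp, Snap25 and CadN had none. A gene without an isoform in this assembly is therefore not shown to be silent in heads. Heads hold many cell types besides neurons, and the isoforms do not tell in which cells the 4 genes were expressed.

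shi and lqf had 5 isoforms each, lap had 1 and EndoA had 0. Of all annotated protein-coding genes, 28.8% had an isoform, and 14.8% of the genes in the assembly had 2 or more. Only 31 genes had 5 or more. All 4 genes have long annotated transcripts, with the longest at 4768 nt for shi, 5759 nt for lqf, 5216 nt for lap and 3913 nt for EndoA. Of the 1399 protein-coding genes in the length class of shi and EndoA (3339 to 4792 nt), 552 (39.5%) had an isoform, and of the 1398 in the class of lqf and lap (4796 nt or more), 595 (42.6%). The 11 isoforms had spliced lengths of 2034 to 3871 nt with a median of 3378 nt and a median of 9 exons, against 1990.5 nt and 4 exons over the whole assembly.

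Transcription start sites (TSSs) were counted by merging 5′ ends within 50 nt, and polyadenylation sites (PASs) by merging 3′ ends within 150 nt. A PAS here is a group of 3′ ends, and whether it is a cleavage site was not tested. shi had 1 TSS and 4 PASs, lqf had 2 TSSs and 2 PASs, and lap had 1 of each. Over the assembly, 5.57% of genes had more than 1 TSS and 7.17% had more than 1 PAS, but most genes (3460) had a single isoform and could have only 1 of each. Among the 15 genes with exactly 5 isoforms, which include shi and lqf, 53.3% had 1 TSS and 93.3% had more than 1 PAS.

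The isoforms of shi divided into a pair that ran to the last coding exons and a set of 3 that stopped in an intron midway. shi lies on the plus strand of chromosome X from 15892116 to 15906716, with 15 annotated transcripts, 7 coding sequences and 3 annotated 5′ ends. All 5 isoforms started at 15892117, at the most upstream of these 5′ ends. Most annotated transcripts start at 15892200, and no isoform started there or at 15892889. The annotated transcripts that have the most upstream start, shi-RA and shi-RG, have a first exon that ends at 15892166, which no isoform had. The first exons of the isoforms ended at sites that are annotated only with the other starts. The isoforms used 16 junctions, all annotated, of the 27 annotated for the gene.

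**Figure D1:**
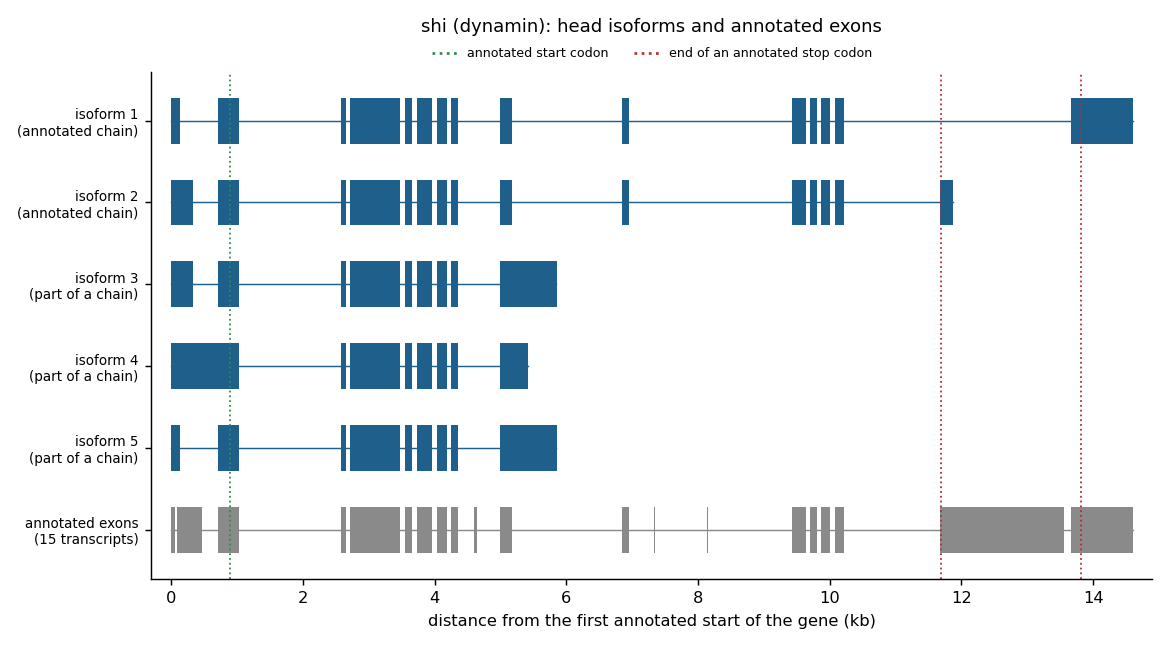
Exons (boxes) and introns (lines) of the 5 shi isoforms, above all annotated shi exons, by distance in kb from the first annotated start; dotted lines mark annotated start and stop codons. All 5 isoforms begin at the same site, and isoforms 3 to 5 end inside an intron, before either stop codon.

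Isoforms 1 and 2 differed in the last exon, which sets the C-terminus of dynamin, the end of its proline-rich tail. Isoform 1 (15 exons, 3738 nt) followed the splice chain of shi-RF and had the distal last exon from 15905774, which carries 151 coding nt, for a protein of 877 residues. Isoform 2 (15 exons, 3179 nt) followed shi-RB and had the proximal last exon from 15903790, which carries 10 coding nt, for 830 residues. Their other coding exons were the same. They also differed at the 5′ side: the first exon ended at 15892251 in isoform 1 (135 nt) and at 15892440 in isoform 2 (324 nt), which left 312 nt and 501 nt before the start codon.

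The 3′ ends of these 2 isoforms, which each held a whole coding sequence, differed in how they met the annotation. Isoform 1 ended at 15906716, the most distal annotated end of the gene and 464 nt beyond the end annotated for shi-RF, with a 3′ UTR of 792 nt. Isoform 2 ended at 15903984, 1084 nt short of the nearest annotated end, with a 3′ UTR of 185 nt where shi-RB has 1269 nt.

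Isoforms 3, 4 and 5 kept the first exons and stopped in the 1659-nt intron that follows the exon ending at 15897295. Isoforms 3 and 5 (9 exons each, 2954 and 2765 nt) both ended at 15897966, 671 nt into the intron. Isoform 4 (8 exons, 2907 nt) ended at 15897532, 237 nt into it. The nearest annotated 3′ end lay 7102 nt and 7536 nt further downstream. These isoforms held 1782 of the 2634 coding nt of shi-RF (67.7%), including the start codon, and lacked both stop codons. Their first exons were of both kinds: isoform 5 had the 135-nt exon of isoform 1 and isoform 3 the 324-nt exon of isoform 2. Isoform 4 retained the first intron, giving a first exon of 1034 nt and 888 nt before the start codon, so the retained stretch lay in the 5′ UTR.

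Alternative coding exons of shi that other annotated transcripts carry were not seen. A 57-nt exon (15896707 to 15896763, in 1 annotated transcript), a 12-nt exon (15899444 to 15899455, in 4) and a 6-nt exon (15900255 to 15900260, in 2) were each absent. All 5 isoforms read across the place of the 57-nt exon, but only isoforms 1 and 2 read across the places of the 12-nt and 6-nt exons.

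The 5 isoforms of lqf included 3 with splice chains that are not annotated. It lies on the plus strand of chromosome 3L from 7528780 to 7540012, with 12 annotated transcripts, 7 coding sequences and 3 annotated 5′ ends. Isoforms 1 to 4 started at 7528781 and isoform 5 at 7532430; the annotated start at 7533126 was not used. The isoforms used 15 junctions, of which 14 are among the 16 annotated. Differences that touch the coding region lay at its opposite ends: a 157-nt exon at the 5′ side, and the exons between 7535645 and 7536975 near the C-terminus. First exons also differed outside it, with a first exon of 184 nt in isoform 5, of 418 nt in isoform 2 and of 406 nt in the other isoforms, as did the 3′ ends.

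**Figure D2:**
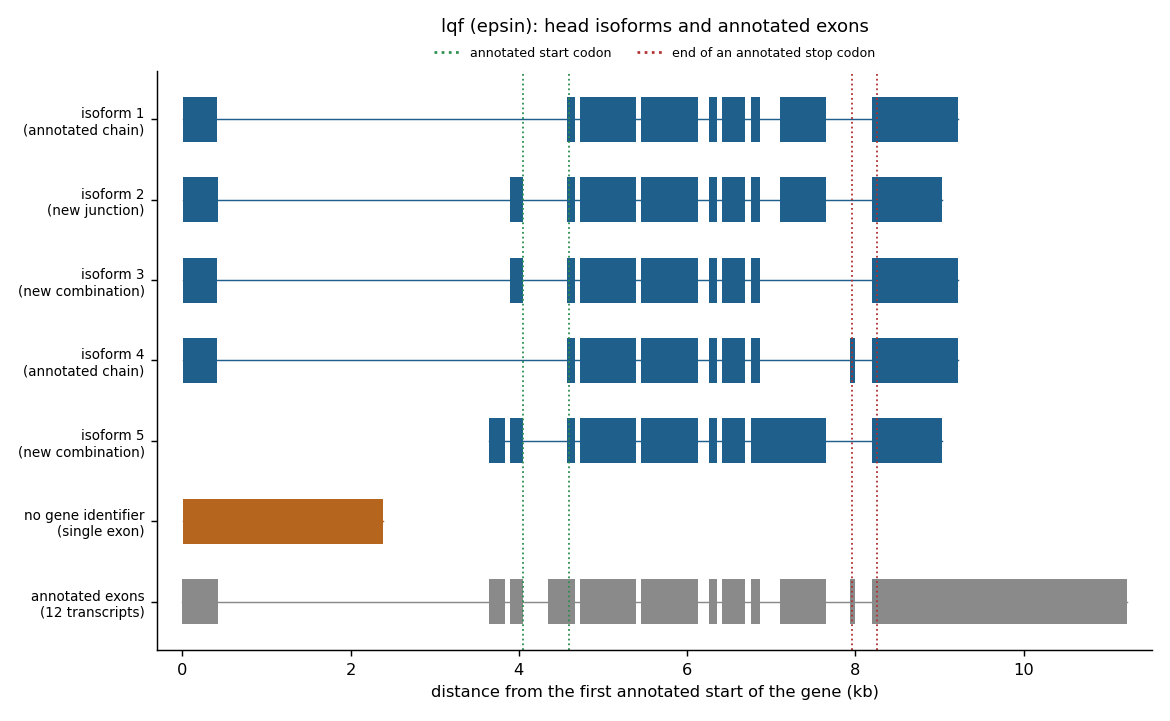
Exons (boxes) and introns (lines) of the 5 lqf isoforms and of a single-exon isoform without a gene identifier (orange), above all annotated lqf exons, by distance in kb from the first annotated start; dotted lines mark annotated start and stop codons. The coding exons in the middle are shared by the 5 isoforms, which differ at the 157-nt exon near 4 kb and between 7 and 8 kb.

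The 157-nt exon (7532672 to 7532828) decides which start codon is available, since its last base is the first base of the upstream start codon. Isoforms 2, 3 and 5 had it and isoforms 1 and 4 lacked it. Isoform 2 (10 exons, 3840 nt) held the whole coding sequence of lqf-RE, for 831 residues. It reached the exon by the 1 junction of the 4 genes that is not annotated, an intron of 3473 nt from 7529199 to 7532671, in which the splice donor and the acceptor are each annotated but not with each other. Isoform 1 (9 exons, 3871 nt) had the chain of lqf-RB, which starts at the downstream codon, for 824 residues. The first introns of isoforms 1 to 4 were 3473 to 4168 nt long, where the median of the 16018 introns in the assembly was 90 nt.

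Near the C-terminus, 4 arrangements were seen. Isoforms 1 and 2 had a coding exon of 552 nt (7535884 to 7536435). Isoform 3 (9 exons, 3476 nt) skipped it through an intron of 1331 nt and held the coding sequence of lqf-RF, which starts at the downstream codon, for 640 residues. It also carried the upstream start codon, and no annotated coding sequence joins that codon to this arrangement. Isoform 4 (9 exons, 3378 nt) had in its place a 59-nt exon (7536711 to 7536769) whose first 30 nt are coding and end with the stop codon, as in lqf-RG, for 630 residues. Isoform 5 (9 exons, 3845 nt) kept the 239-nt intron before the 552-nt exon, after 628 codons of lqf-RE; since 239 is not a multiple of 3, the frame shifts unless a stop codon comes first, and no annotated coding sequence was whole. A shorter form of the exon, 432 nt, is in 4 annotated transcripts and was not seen.

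All 5 lqf isoforms ended in the same 3′ UTR and short of its annotated ends at 7538279 and 7540012. Isoforms 1, 3 and 4 ended at 7538005, 274 nt short, and isoforms 2 and 5 at 7537805, 474 nt short. The start at 7528781 was joined to both PASs and the start at 7532430 to the proximal one, which made 3 combinations. Isoform 5 alone began at 7532430 and has a single 3′ end, so no more than 3 could be seen. With 3′ ends merged within 300 nt, lqf had 1 PAS and these combinations were not distinct. A further isoform at this locus carried no gene identifier: a single exon from 7528781 to 7531163 (2383 nt) that began at the start of lqf and ran into its first intron. The strand given for single-exon isoforms carries no information (134 of 269 lay on the strand of their gene), and it was not counted as lqf. Of the 303 isoforms without an identifier, 250 had an end at an annotated start.

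The single isoform of lap encoded the shortest annotated AP180 protein. lap lies on the plus strand of chromosome 3R from 7186994 to 7200941, with 9 annotated transcripts that encode 9 different proteins from 1 annotated start. The isoform (11 exons, 2034 nt) ran from 7186995 to 7198635 along the splice chain of lap-RA, for 468 residues, where the other annotated proteins have 572 to 788. It used 10 of the 23 annotated junctions. Its longest intron, 5357 nt from 7192971 to 7198327, is in 1 of the 9 annotated transcripts and passes over a 96-nt exon that the other 8 have, and over exons of 261, 280 or 202, 100 and 90 nt that are used in fewer. By position, its exons overlapped 63% of the coding nt of lap-RD, the longest coding sequence. Part of this overlap is not coding in the isoform, since the stop codon of lap-RA ends at 7198425 and that of lap-RD at 7198510. Further upstream it had the 33-nt exon found in 7 of 9 transcripts (7191132 to 7191164), the 115-nt form of an exon that is otherwise 163 nt, and the 250-nt form of one that is otherwise 292 nt. The 3′ end lay 648 nt short of the nearest annotated end and 2306 nt short of the end of lap-RA, leaving a 3′ UTR of 210 nt.

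**Figure D3:**
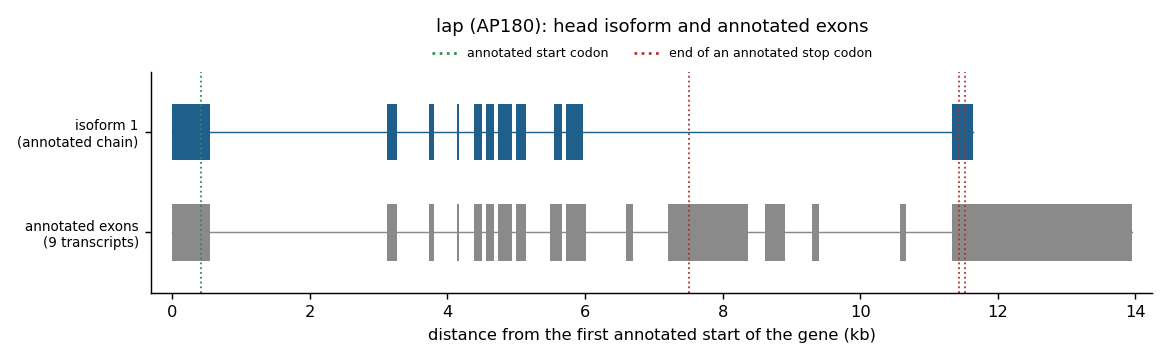
Exons (boxes) and introns (lines) of the lap isoform, above all annotated lap exons, by distance in kb from the first annotated start; dotted lines mark annotated start and stop codons. The isoform passes from the exon near 6 kb to the one near 11 kb and skips every annotated exon between them.

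EndoA had no exon line, and no isoform overlapped its span on chromosome 3R (18906609 to 18910755, plus strand). Its 3 annotated transcripts are 3561 to 3913 nt long and share 1 coding sequence of 1110 nt, for 369 residues. An isoform was kept by the authors only with full-length reads that supported it, and at an unknown depth the absence gives no upper limit for its expression.

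Over the 11 isoforms, 5 had an annotated splice chain (2 of shi, 2 of lqf and the 1 of lap), against 75.6% over all isoforms of annotated genes. Another 3, the shi isoforms that ended early, were parts of an annotated chain (12.3% over all). The other 3, all of lqf, were new combinations of annotated junctions or had a new junction (6.42% over all). By junction rather than by isoform, all but 1 of those the 3 genes used are annotated, as were 99.5% over all genes. A whole annotated coding sequence was held by 7 of 11 isoforms (2 of shi, 4 of lqf and the 1 of lap), against 83.5%. An intron that another isoform of the gene removed was retained in 2 of the 10 isoforms of shi and lqf, 1 of each, against 14.5% of isoforms in genes with 2 or more. Except for retained introns, the shares over all isoforms, here and for the ends below, come largely from genes with a single isoform (3460 of 4059 genes). They were not matched to genes with as many isoforms as shi and lqf. Isoforms of a gene share exons and a priming step, so the 11 are not independent and no test was made of these shares.

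The 5′ and 3′ ends differed in how closely they matched the annotation. All 11 of the 5′ ends lay within 1 nt of an annotated one, as did 95.2% over all isoforms; the assembly kept reads whose start had support in a promoter database. Within 150 nt of an annotated 3′ end lay 1 of 11, isoform 1 of shi, against 76.4%. The other 10 all fell short, by 274 to 7536 nt, while over all isoforms 973 fell short by more than 150 nt and 195 ran past by as much. Ends within an annotated intron were found for 3 of 11, all of shi, against 3.64%. Whether the short ends are cleavage sites or places where cDNA synthesis started within the transcript was not tested.

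**Figure D4:**
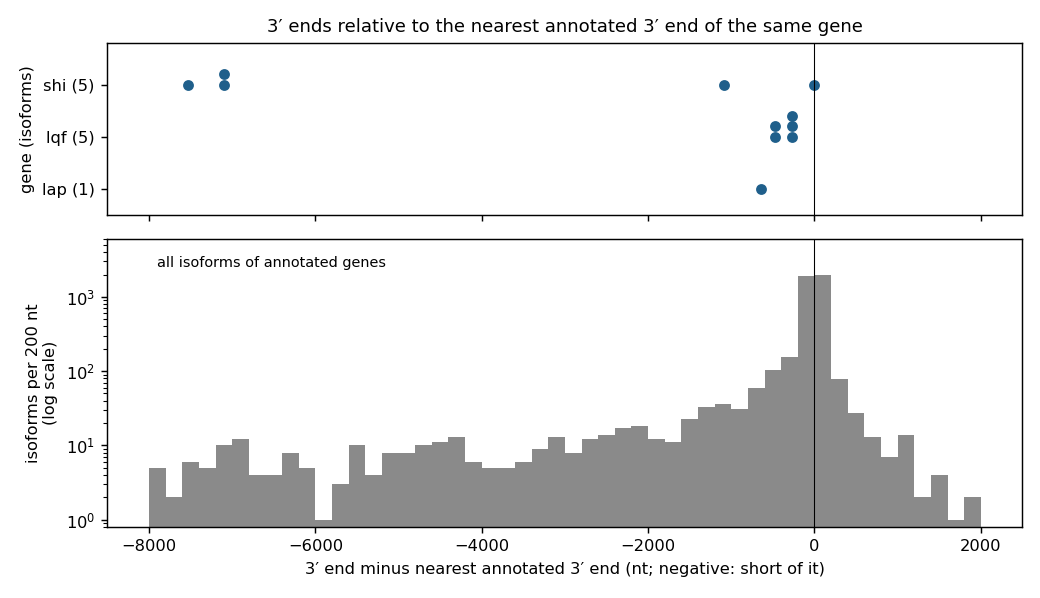
Distance in nt of each 3′ end from the nearest annotated 3′ end of its gene (negative values fall short): above, 1 point for each of the 11 isoforms of shi, lqf and lap; below, the number of isoforms of all annotated genes per 200 nt on a log scale, leaving out 190 isoforms below -8000 nt and 10 at 2000 nt or above. Only 1 of the 11 points lies at 0, where most isoforms of the assembly lie.

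Of 31 other genes of endocytosis at nerve terminals, 29 matched the annotation by symbol (Sh3PX1 and PI4KIIIalpha did not) and 16 (55.2%) had an isoform, against the 28.8% of protein-coding genes given above. The share was higher in the length classes of shi (39.5%) and lqf (42.6%), and the listed genes were not matched for length. The list was also chosen with earlier results of these data known. Coat genes were present with 1 isoform each: Chc (clathrin heavy chain, 5695 nt), Clc (clathrin light chain, 1112 nt), and the adaptor subunits AP-2alpha (3431 nt) and AP-1-2beta (3227 nt). AP-2mu and AP-2sigma, which complete the adaptor, had none. Their longest annotated transcripts (2025 and 751 nt) are below the size selection of 3 kb, as is that of Clc (1230 nt), which was present. Whether the selection bears on the absences was not tested. The chaperone Hsc70-4, which strips the coat (2367 nt), was present and its cofactor aux was not. Among genes of phosphoinositide lipids, the kinases sktl (3618 nt) and PIP5K59B (3814 nt) and the phosphatase Sac1 (2364 nt) had 1 isoform each, and Synj (synaptojanin), the partner of endophilin, had none. Of the scaffold and membrane-bending genes, nwk (2628 nt) and the EHD ATPase Past1 (1936 nt) had 1 each and Dap160, Eps-15, Amph, EndoB, WASp and Cip4 had none. Rab5 (987 nt) and Rab35 (2023 nt), small GTPases of endosomes, the kinase Ack (4218 nt) and the vesicle membrane protein fwe (1341 nt) had 1 isoform each, and Rab11 and tweek had none, although assigning isoforms to genes by strand and exon overlap gave Rab11 1 isoform. Only Syt1, the calcium sensor of vesicle release that also acts in endocytosis, with 7 isoforms, and stnB (stoned B), with 2, had more than 1; stnA had none, but it shares its span with stnB, so the label of those isoforms is uncertain.

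**Figure D5:**
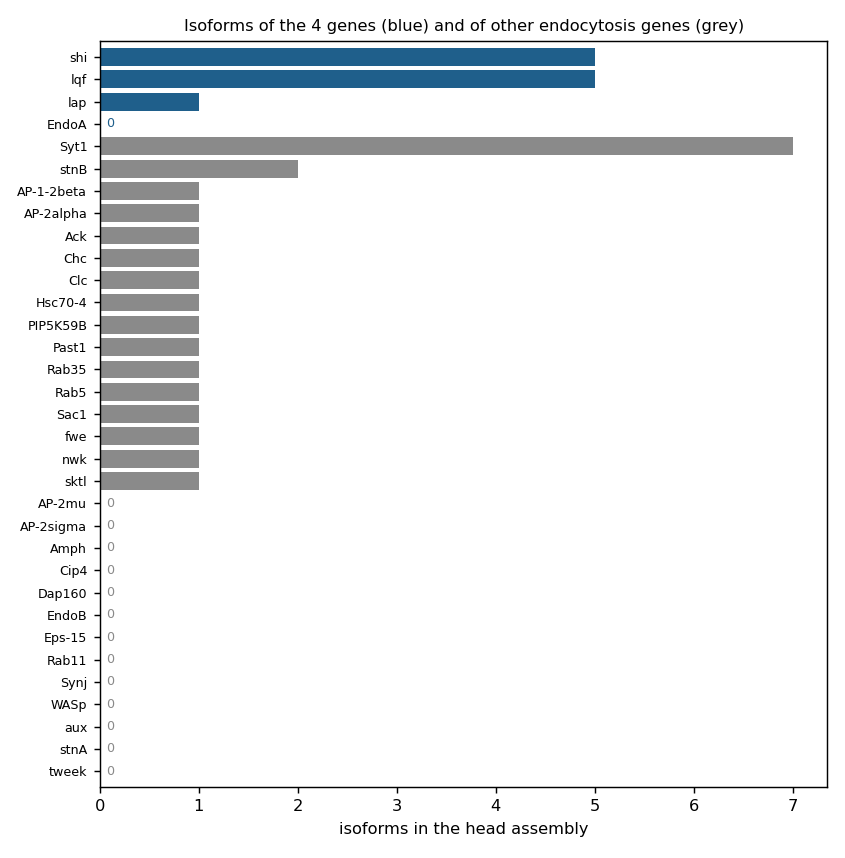
Number of isoforms in the head assembly for the 4 genes (blue, above) and for 29 other endocytosis genes (grey, below). shi and lqf have 5 each, more than every listed gene except Syt1, which has 7.

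The 23 isoforms of those 16 genes included 14 with an annotated chain, 16 with a whole coding sequence and 12 with a 3′ end within 150 nt of an annotated one. These came mostly from genes with a single isoform. Of the 7 Syt1 isoforms, 1 had an annotated chain and 3 a whole coding sequence, and the 2 of stnB had neither. No isoform of Syt1 or stnB had a 3′ end within 150 nt, so low shares were also found in listed genes with several isoforms. Since 14 of the 16 genes had a single isoform, only Syt1 and stnB could have had more than 1 TSS or PAS: both had 1 TSS, and Syt1 had 5 PASs and stnB 1.

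The genes most alike in structure were found by the summed difference in numbers of isoforms, TSSs, PASs and splice chains, over all genes of the assembly. For shi they were Fas1 (5 isoforms, 1 TSS, 3 PASs), CLIP-190 (5, 2 and 4) and GluClalpha (5, 1 and 5), each at a difference of 1. For lqf, stv had the same numbers (5 isoforms, 2 TSSs and 2 PASs), followed by Stat92E and PCB at a difference of 1. For lap, 3459 genes had the same numbers, and CG17834, CG5805 and CG31211 were nearest in spliced length, within 1 nt.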

How the data were processed

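As the methods of the study describe, its authors merged the 3 Iso-seq libraries, aligned consensus reads to dm6 with STARlong, corrected junctions with short reads and collapsed reads into isoforms with FLAIR. They deposited exon coordinates, without abundance or normalization, and library depth was not given in the sources used here. An extra number per isoform, of no stated meaning, was not used, and whether a described filter on 3′ ends was applied to these isoforms is not stated.

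Isoforms were compared with the Ensembl release 115 annotation of BDGP6.54, the same assembly. Of 4059 identifiers, 4035 matched, with 4940 isoforms. Left ends lie 1 nt right of annotated starts, so ends 1 nt apart counted as equal. Isoforms with 1 exon took the strand of their gene. A coding sequence was held when every coding exon and junction was present. Structure calls were tried on 200 annotated transcripts, altered or unaltered. Some of these checks could hardly fail, such as finding the coding sequence of a transcript in that transcript, so they are a weak test of the calls. Named genes were the 4 genes, every listed endocytosis gene, and the 3 genes most alike to each. Genes and lists were chosen with earlier results of these data known. No test was made, since there was 1 pooled group. Alternatives were other windows for ends, other matches of chains, and assignment of genes by overlap. Python 3.11.15 and matplotlib 3.10.9 were used.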

Additional observations from a re-analysis of the deposited data

How the results depend on the processing

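Of 33 alternative settings tried over the results, 24 left the value within 1.5 times and 9 moved it. Several of the 24 could give no other value, so their number is no measure of robustness. Other windows and counting each chain once cannot change the counts of lap, which had 1 isoform. Counting each chain once cannot change EndoA, which had 0, and other TSS windows cannot split the shared start of the shi isoforms. A further setting kept only isoforms whose 3′ ends lie within 150 nt of annotated ones. The PASs of shi then numbered 1 in place of 4. lqf had 0 TSSs and 0 PASs in place of 2 and 2, and lap had 0 TSSs and 0 PASs in place of 1 and 1. The TSSs were lost with the short 3′ ends of these isoforms, since all 11 of the 5′ ends lay within 1 nt of an annotated one. Merging 3′ ends within 300 nt gave lqf 1 PAS in place of 2. Annotated splice chains numbered 8 in place of 5 of 11 when parts of a chain counted too, and 3′ ends near an annotated one 4 in place of 1 when the limit was 300 nt. With 2 isoforms needed, 2 of the listed endocytosis genes counted as found in place of 16. Assigning genes by strand and exon overlap gave lqf 6 isoforms and found 17 listed genes, with Rab11 added. Leaving out a library was not possible with the isoforms used here, which were assembled from the pooled libraries. Planned results on poly(A) signals and on A-rich sequence downstream of the 3′ ends were not run, because no genome sequence was used here. Depth limits every absence: a gene or exon not seen, such as EndoA or the small shi exons, is not shown to be missing from head RNA.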
